A study of Homo sapiens with 6 samples.

Results

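The genes described here are 10 keratins that mark the luminal and basal layers of the mammary gland: KRT7, KRT8, KRT18 and KRT19 (luminal), KRT5, KRT14, KRT15 and KRT17 (basal), and the further type II keratins KRT80 and KRT81. They were chosen by name, and every probe set was taken whose entry in the array platform's gene table includes one of them. That gave 12 probe sets for 8 of the 10 genes, of 54613 probe sets in all, and each of the 12 names a single gene. KRT17 and KRT81 were not analysed here.

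The 6 arrays held RNA of MDA-MB-436 cells, a human breast tumour line in permanent culture that has mesenchymal features, and are labelled as 3 replicates of NF1-C2S transfected cells and 3 replicates of wild type cells. Per the series record the construct, there written NF1-C2, was carried by an expression plasmid in stable transfectants, and it is a form of nuclear factor I-C, a transcription factor encoded by NFIC. The labels name no cells with an empty plasmid, and the sources used here do not say if the transfectants were 1 clone or a pool. The cells of both groups grew in RPMI-1640 medium with serum and insulin. Nothing states that the replicates were separate cultures, so p-values reflect only how far these arrays differ, and part of that may be technical.

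Keratins are the intermediate filament proteins of epithelial cells. A filament is built from pairs of an acidic type I keratin and a basic or neutral type II keratin, so that the 2 kinds are usually made together. In the mammary gland KRT8 and KRT18 are the partners of the luminal cells, where KRT7 and KRT19 also occur, and KRT5 and KRT14 are the partners of the basal, myoepithelial layer. Values are deposited log2 values from RMA, which normalizes the arrays to a common distribution, so a difference of 1 is a 2-fold change. The median of all probe sets over the 6 arrays was 4.82, and signals near or below it are called dim. Levels of different probe sets cannot be set against each other, because probes bind their targets to different degrees.

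Array medians ran from 4.80 to 4.85. The correlation over probe sets was at least 0.992 within a group and 0.971 to 0.976 between groups. NFIC itself does not check the labels. Its brightest probe set averaged 8.25 ± 0.04 in transfected and 8.47 ± 0.06 in wild type arrays (SD, n = 3 each), a log2 change of -0.22 (limma adjusted p = 0.082). Its other probe sets changed by -0.51 on 213298_at (adjusted p = 0.0536), -0.11 and 0.22, and none passed. The groups did not overlap on the brightest and on 213298_at, both lower in transfected arrays. The sources used here do not say which part of the message the plasmid holds. Each direction below therefore rests on the labels.

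The nuclear factor I family binds the palindrome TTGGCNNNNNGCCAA and, more weakly, its 5-letter half-site TTGGC, which was searched for on both strands. Of the 10 genes, 2 had a promoter in the RefSeq table used here (GRCh38.p14), KRT8 of the luminal partners and KRT5 of the basal partners. Both are shown as the 250 bases before the annotated start, 5′ to 3′ on the gene's strand (minus), with half-sites in capitals. KRT8 lies at chr12:52926470-52926719 and KRT5 at chr12:52520395-52520644.
KRT8: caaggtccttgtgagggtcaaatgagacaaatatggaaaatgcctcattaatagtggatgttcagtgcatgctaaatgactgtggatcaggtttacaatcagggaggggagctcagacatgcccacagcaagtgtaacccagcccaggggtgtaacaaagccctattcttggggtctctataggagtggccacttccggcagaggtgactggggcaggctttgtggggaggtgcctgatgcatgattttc
KRT5: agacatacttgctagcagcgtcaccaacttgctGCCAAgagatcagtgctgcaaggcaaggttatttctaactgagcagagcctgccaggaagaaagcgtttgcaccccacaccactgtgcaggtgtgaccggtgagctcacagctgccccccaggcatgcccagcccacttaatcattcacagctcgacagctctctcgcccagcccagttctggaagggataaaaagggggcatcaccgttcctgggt
The KRT8 window held no half-site on either strand and the KRT5 window held 1, whose first base is at position -217 from the start. A half-site was found in 40.8% of 35116 promoter windows of that length, and the full palindrome in 0.0285% of them and in neither of these. A match is a description of the letters only, and any other start of either gene was not searched.

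Luminal keratin messages were lower in the transfected cells on 2 probe sets, those of KRT18 and of KRT7, each at about a 2-fold difference. KRT8, the partner of KRT18, and KRT19 did not pass the test, and the basal keratins were dim in both groups. Of the 12 probe sets 2 fell, 0 rose and 10 did not pass (limma, adjusted p under 0.05 over all 54613 probe sets). At an unadjusted p under 0.05 the count was 3, all lower. The share of all probe sets at that looser threshold was not computed, so this count is not read as a result about the keratins. Over all probe sets 22.2% were called, 11.4% lower and 10.8% higher, so the share of 16.7% among the keratin probe sets is near the background. The median log2 change over the 12 probe sets was -0.08, against 0.0067 over all probe sets. The groups did not overlap on 3 of the 12 (25%), which was so for 34.9% of all probe sets.

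**Figure D1:**
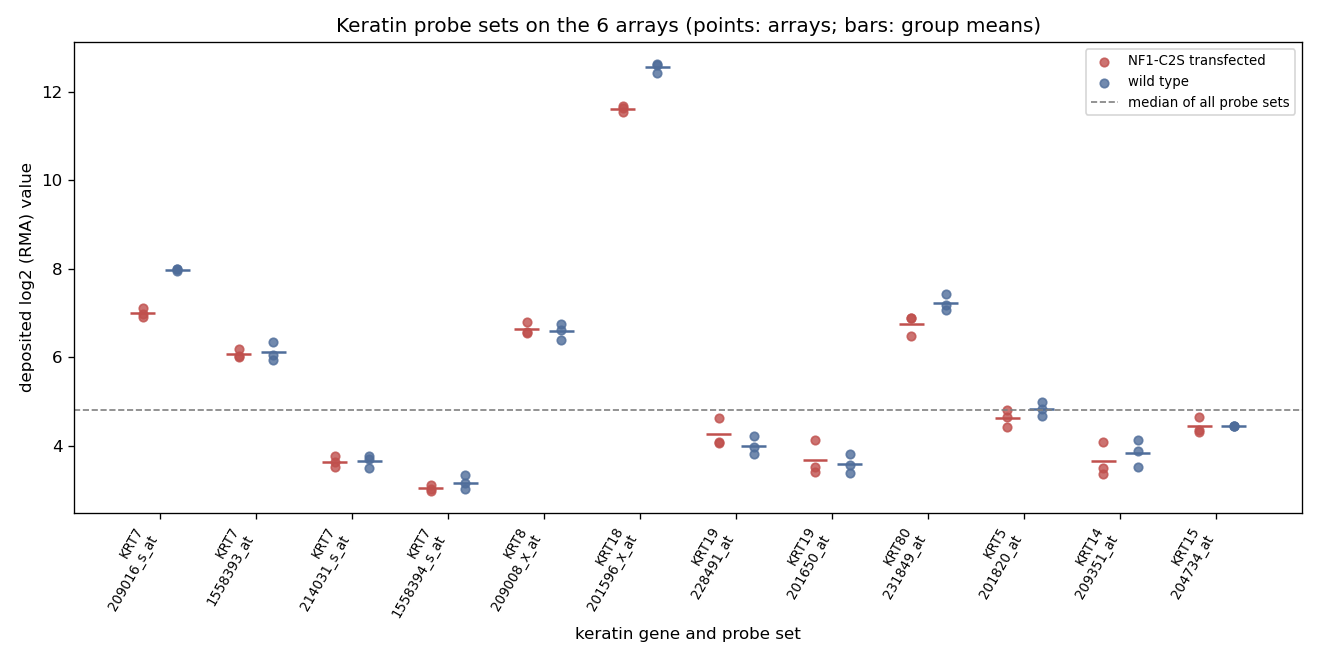
Deposited log2 values (vertical axis) of the 12 keratin probe sets (horizontal axis), with a point per array, a bar at each group's mean, NF1-C2S transfected left of wild type, and a dashed line at the median of all probe sets, 4.82. The groups are apart on the KRT7 probe set 209016_s_at, on KRT18 and on KRT80, and 7 probe sets have a group mean at or below the dashed line.

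KRT18, the type I keratin of simple epithelia, read 11.67, 11.64 and 11.54 in transfected arrays, against 12.60, 12.63 and 12.42 in wild type arrays. Every transfected array lay below every wild type array, and the wild type signal stood above 99.4% of all probe sets. The means were 11.62 ± 0.07 in transfected and 12.55 ± 0.11 in wild type arrays (SD, n = 3 each), a change of -0.93 on the log2 scale (SE 0.09, limma adjusted p = 0.000209), which is a level 1.91-fold lower in transfected cells. The probe set, 201596_x_at, is the only one that names KRT18. Its _x_at ending marks probes that may bind other transcripts as well, and RefSeq lists 68 pseudogenes of KRT18, so signal from copies of the gene cannot be told apart.

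KRT8, the type II partner of KRT18, read 6.55, 6.57 and 6.79 in transfected arrays, against 6.76, 6.61 and 6.39 in wild type arrays. The groups overlap. The log2 change of 0.05 (SE 0.12, limma adjusted p = 0.85) has a 95% interval from -0.22 to 0.32, which does not reach the change of KRT18. Within each array the KRT18 signal minus the KRT8 signal was 4.75 to 5.12 in transfected and 5.84 to 6.03 in wild type arrays, so the 2 changes differed by -0.98 (SE 0.13). An exact permutation test over the arrays gave p = 0.1 (two-sided), which is the smallest that 3 arrays against 3 allow, and 0.1 after Benjamini-Hochberg adjustment over the 2 such pairs compared. With arrays exchanged only within replicate numbers the exact p was 0.25, again the smallest possible. Both pairs were picked after their values were seen.

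The KRT8 probe set, 209008_x_at, likewise may bind related transcripts, and RefSeq lists 52 KRT8 pseudogenes. One of them, KRT8P12, has 2 probe sets of its own on the array, named here after their values were seen. They changed by -0.37 and -0.30 (limma adjusted p = 0.138 and 0.109), and neither passed.

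KRT7, a type II keratin of glandular and ductal epithelia, has 4 probe sets, and only 209016_s_at fell. It read 6.98, 6.91 and 7.11 in transfected arrays, against 7.99, 7.96 and 8.0 in wild type arrays. The 3 wild type values lay within 0.04 of each other on the log2 scale, about 1 unit above the transfected ones. The means were 7.0 ± 0.10 in transfected and 7.98 ± 0.02 in wild type arrays (SD, n = 3 each), a change of -0.98 on the log2 scale (SE 0.08, limma adjusted p = 0.000113) or a level 1.98-fold lower in transfected cells.

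The second KRT7 probe set, 1558393_at, also lay above the median of all probe sets but showed no such difference. It read 6.0, 6.20 and 6.04 in transfected arrays, against 6.35, 5.95 and 6.05 in wild type arrays, with a log2 change of -0.04 and a 95% interval from -0.31 to 0.24 (limma adjusted p = 0.895). The per-array difference between both probe sets moved by -0.95 (SE 0.16, exact permutation p = 0.1, or 0.25 within replicate numbers, each the smallest possible). The remaining 2, 214031_s_at and 1558394_s_at, were dim, with values between 2.98 and 3.78 and log2 changes of -0.01 and -0.13 (adjusted p = 0.971 and 0.485). The fall of KRT7 therefore rests on 1 probe set, and the _s_at ending of its name marks probes shared by several transcripts.

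KRT19, the small type I keratin of luminal and ductal cells, was dim on both of its probe sets. On the brighter one, 228491_at, it read 4.64, 4.06 and 4.08 in transfected arrays, against 4.22, 3.83 and 3.97 in wild type arrays. The groups overlap, and the log2 change of 0.25 (95% interval -0.15 to 0.66) did not pass (limma adjusted p = 0.407). On the other, 201650_at, the values ran from 3.41 to 4.14 in transfected and from 3.39 to 3.82 in wild type arrays, with a log2 change of 0.10 (adjusted p = 0.827).

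KRT80, a type II keratin of many epithelia, read 6.90, 6.89 and 6.48 in transfected arrays, against 7.19, 7.44 and 7.07 in wild type arrays. The groups do not overlap, although the lowest wild type array lies only 0.17 above the highest transfected one. The means were 6.76 ± 0.24 in transfected and 7.23 ± 0.19 in wild type arrays (SD, n = 3 each), a log2 change of -0.48 (SE 0.14) that missed the threshold (limma adjusted p = 0.0512). With the replicate number as a block it passed (adjusted p = 0.0108), and it also passed when each gene was represented by 1 probe set (0.0400). Without transfected replicate 3 the change was -0.34 (adjusted p = 0.129).

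**Figure D2:**
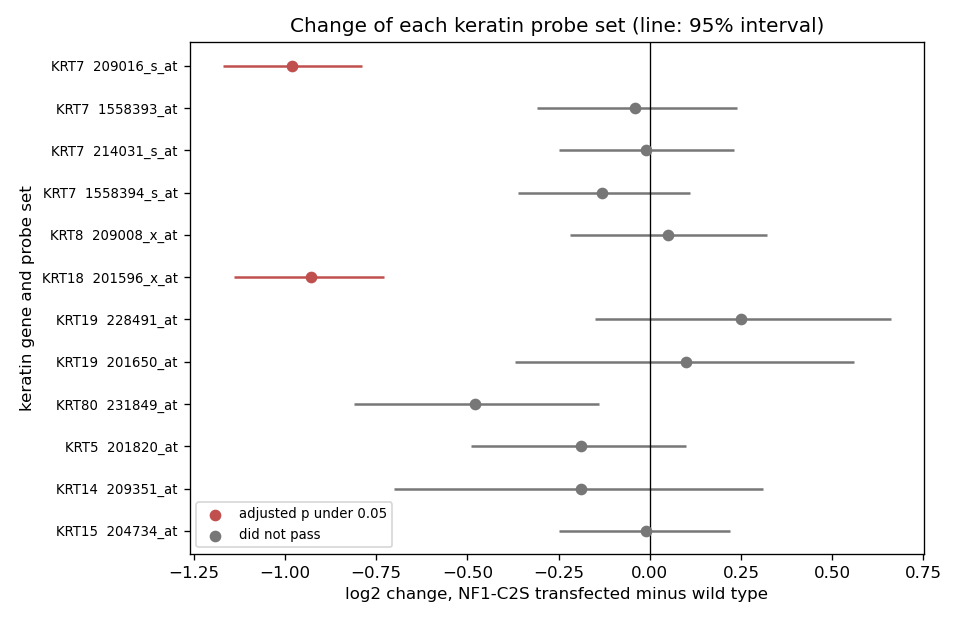
Log2 change of each keratin probe set (horizontal axis, NF1-C2S transfected minus wild type), with the limma estimate as a point and its 95% interval as a line. The intervals of KRT18 (-1.14 to -0.73) and of the KRT7 probe set 209016_s_at (-1.17 to -0.79) lie farthest below 0, and that of KRT80 (-0.81 to -0.14) also lies below 0 although its adjusted p missed the threshold.

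The basal keratins were dim in both groups, with group means from 3.66 to 4.83. KRT5, the type II keratin of the basal layer, read 4.43, 4.66 and 4.82 in transfected arrays, against 4.83, 4.67 and 4.99 in wild type arrays. Its log2 change of -0.19 (95% interval -0.49 to 0.10) did not pass (limma adjusted p = 0.378), and the groups overlap.

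KRT14, the type I partner of KRT5, read 4.10, 3.50 and 3.37 in transfected arrays, against 4.13, 3.89 and 3.53 in wild type arrays, with a log2 change of -0.19 (95% interval -0.70 to 0.31, limma adjusted p = 0.648). KRT15, a type I keratin of basal cells and of hair follicle stem cells, read 4.65, 4.37 and 4.32 in transfected arrays and 4.46 in each of the wild type arrays, with a log2 change of -0.01 (adjusted p = 0.956). In both genes the groups overlap. Differences between dim signals tend to come out too small after RMA.

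Across other settings of the fit, KRT7 on 209016_s_at changed by -1.04 to -0.94 and KRT18 by -1.0 to -0.89, and both passed in the 14 alternatives that kept their probe sets. With _x_at and _s_at probe sets dropped, KRT7 was read by 1558393_at at -0.04 (limma adjusted p = 0.887) and KRT18 had no probe set left. KRT80 kept its sign, at -0.56 to -0.34, and passed in 7 of 14. None of the other 9 probe sets passed in any alternative that could be run for it.

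**Figure D3:**
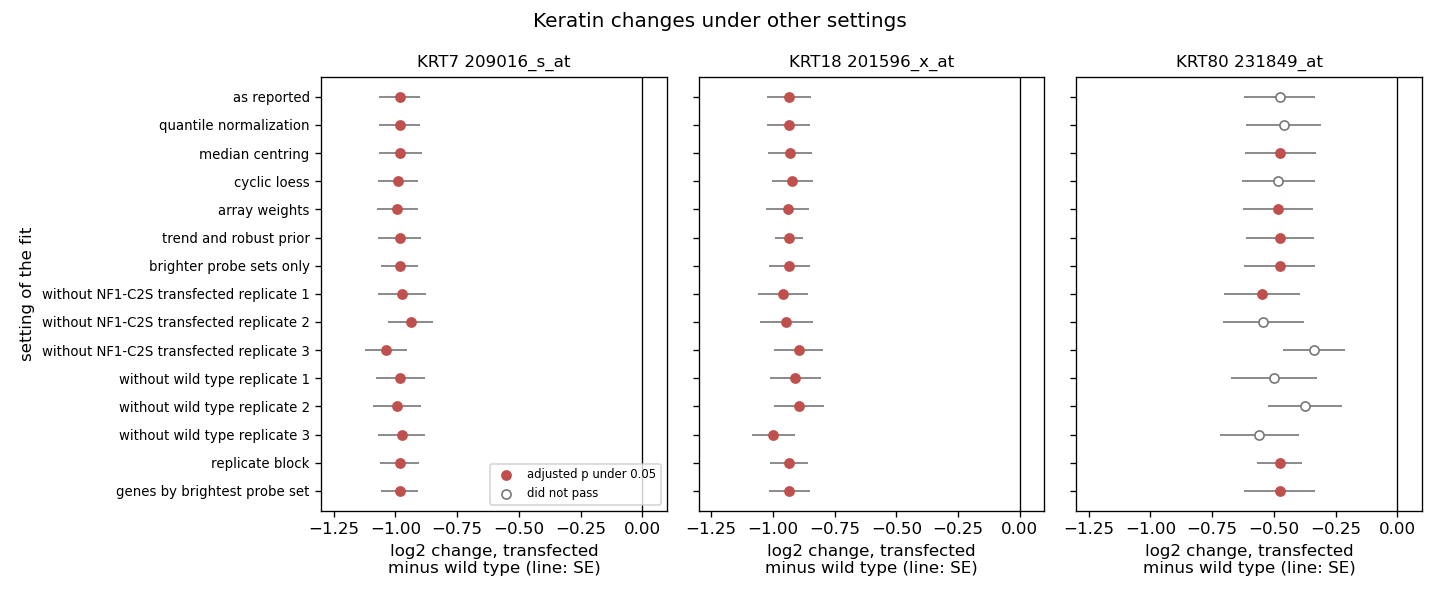
Log2 change (horizontal axis, transfected minus wild type) of the KRT7, KRT18 and KRT80 probe sets under each setting of the fit (vertical axis), with the SE as a line and filled points where the adjusted p was under 0.05. KRT7 and KRT18 are filled throughout, and KRT80 is filled in 7 of the 14 alternatives.

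KRT80, KRT7, KRT81, KRT5, KRT8 and KRT18 lie in the keratin cluster of chromosome 12, where KRT18 is the only type I gene, and KRT15, KRT19, KRT14 and KRT17 lie in the cluster of chromosome 17. Around KRT7, KRT8 and KRT18, the nearest 20 measured genes that are no keratins had a median log2 change of -0.03 and a range of -0.32 to 0.42. Of these 3 were called higher and 1 lower, or 20.0%, against 31.9% of all 19775 genes, each read by its brightest probe set. The changes of KRT7 and KRT18 lay outside that range. Around KRT19, KRT14 and KRT15 the median was 0.06, with a range of -1.24 to 0.37, and 2 were called higher and 2 lower (20.0%).

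The genes closest to a keratin in pattern were taken as those with the smallest Euclidean distance between the 6 log2 values, after the mean over the arrays was subtracted. For KRT18 they were ADM, which encodes the vasodilator peptide adrenomedullin (distance 0.0790, log2 change -0.93), and RALGPS2 (0.0892, -0.89). For KRT7 they were DGKD, a diacylglycerol kinase (0.0899, -0.96), and SMIM10L1 (0.0959, -1.01). For KRT80 they were PARPBP (0.155, -0.39) and ABCC9, a regulatory subunit of potassium channels (0.200, -0.49). With 2 groups of 3 arrays, such likeness mostly reflects a similar size of change.

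Other keratins and keratin-binding genes were read in a fit over 19775 genes, each by its brightest probe set that names only that gene, in which 31.9% of genes were called, 15% higher and 16.9% lower. Where several probe sets of a gene are counted as lower or higher below, those calls come from the fit over all probe sets. Of 45 other keratin genes listed, 36 were measured, and 30 of these were at or below the median of all probe sets in both groups. In this list 2 rose, 1 fell and 33 did not pass, or 8.33% called, with a median log2 change of 0.02. Without wild type replicate 2 the count of rises was 1. The hair keratin KRT33A rose, from a probe set ending in _x_at that averaged 6.29 ± 0.15 in transfected and 5.60 ± 0.15 in wild type arrays (SD, n = 3 each; log2 change 0.69, SE 0.11, limma adjusted p = 0.00217). KRT222, a keratin-like gene, rose by 0.45 but was dim in both groups (3.22 ± 0.16 in transfected and 2.77 ± 0.14 in wild type arrays). KRT32 fell by 0.21 (adjusted p = 0.0462, or 0.0735 with the replicate block), and no gene of the list was called lower under 12 of 13 alternatives. KRT10, the type I keratin of differentiated epidermis, named after its value was seen, averaged 10.00 ± 0.06 in transfected and 9.92 ± 0.02 in wild type arrays and did not pass (adjusted p = 0.432).

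The keratin linkers include genes of desmosomes and hemidesmosomes and other keratin-binding genes, and were listed with earlier results of these data known. Among the 18 listed, 11 were lower. Another 1 rose and 6 did not pass, which makes 66.7% called against 31.9% of all genes, with a median log2 change of -0.62. Only 3 of the 18 were at or below the median of all probe sets in both groups. In the fit over brighter probe sets only, 12266 of 27304 were called in either direction, and the linkers were not compared with genes of like level. The hemidesmosome integrin ITGB4 averaged 5.10 ± 0.59 in transfected and 8.69 ± 0.47 in wild type arrays (SD, n = 3 each), a change of -3.59 on the log2 scale (SE 0.33, limma adjusted p = 0.000158), with 3 of its 5 probe sets lower. Its partner ITGA6 fell by 1.29 on the log2 scale (SE 0.09, limma adjusted p = 4.32e-05), with both of its probe sets lower.

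The desmosomal cadherin DSC3 averaged 3.98 ± 0.19 in transfected and 5.94 ± 0.20 in wild type arrays (log2 change -1.96, limma adjusted p = 4.11e-05). Desmoplakin, DSP, which ties keratin filaments to the desmosome, read 6.24, 6.73 and 6.74 in transfected arrays, against 7.80, 8.16 and 7.82 in wild type arrays. Its groups do not overlap (log2 change -1.36, SE 0.16, adjusted p = 0.000551). The list's 1 rise was that of the desmosomal cadherin DSG2, named after its value was seen, at 10.70 ± 0.03 in transfected and 10.05 ± 0.06 in wild type arrays (log2 change 0.65, adjusted p = 0.000271). With _x_at and _s_at probe sets dropped, 7 of the 15 genes still measured were lower and 1 was higher, and ITGB4 then read -0.09 on a dim probe set (adjusted p = 0.87). The share of all genes called in that fit was not computed, so these counts have no background beside them.

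Among 16 other intermediate filament genes 4 fell, 0 rose and 12 did not pass, or 25% called, below the 31.9% of all genes. Vimentin, VIM, the filament protein of mesenchymal cells, read 13.04, 12.96 and 13.04 in transfected arrays, against 13.53, 13.53 and 13.55 in wild type arrays (log2 change -0.52, SE 0.06, limma adjusted p = 0.000644). Its other probe set, which was dim, had a log2 change of -0.42 and did not pass in the fit over all probe sets (limma adjusted p = 0.183). In that fit the adjusted p of the first was 0.00132. The neurofilament gene NEFL fell by 1.21, with all 3 of its probe sets lower, and SYNC and SYNM, which encode syncoilin and synemin, fell by 1.36 and 0.35.

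Of 25 measured transcription factors that act on keratin or epithelial genes, 8 fell, 4 rose and 13 did not pass (48% called, against 31.9% of all genes, 16.9% lower and 15% higher; median log2 change -0.02). Only 4 of the 25 were at or below the median of all probe sets in both groups. Among brighter probe sets only, 12266 of 27304 were called, and the factors were not compared with genes of like level. KLF5, a factor of basal and progenitor epithelial cells, averaged 5.98 ± 0.08 in transfected and 8.57 ± 0.06 in wild type arrays (SD, n = 3 each), a change of -2.59 on the log2 scale (SE 0.08, limma adjusted p = 1.98e-06). Both KLF5 probe sets were lower. TFAP2A fell by 1.70, with 1 of its 3 probe sets lower. The luminal factor GATA3 fell by 1.33, with 2 of 3 lower, and read -0.30 on its brightest probe set ending in neither _x_at nor _s_at (limma adjusted p = 0.099). The epithelial factor ELF3 rose by 1.55 on its brightest probe set (SE 0.15, limma adjusted p = 0.000202), and all 3 of its probe sets were higher. TP63, the basal factor, was not analysed here.

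**Figure D4:**
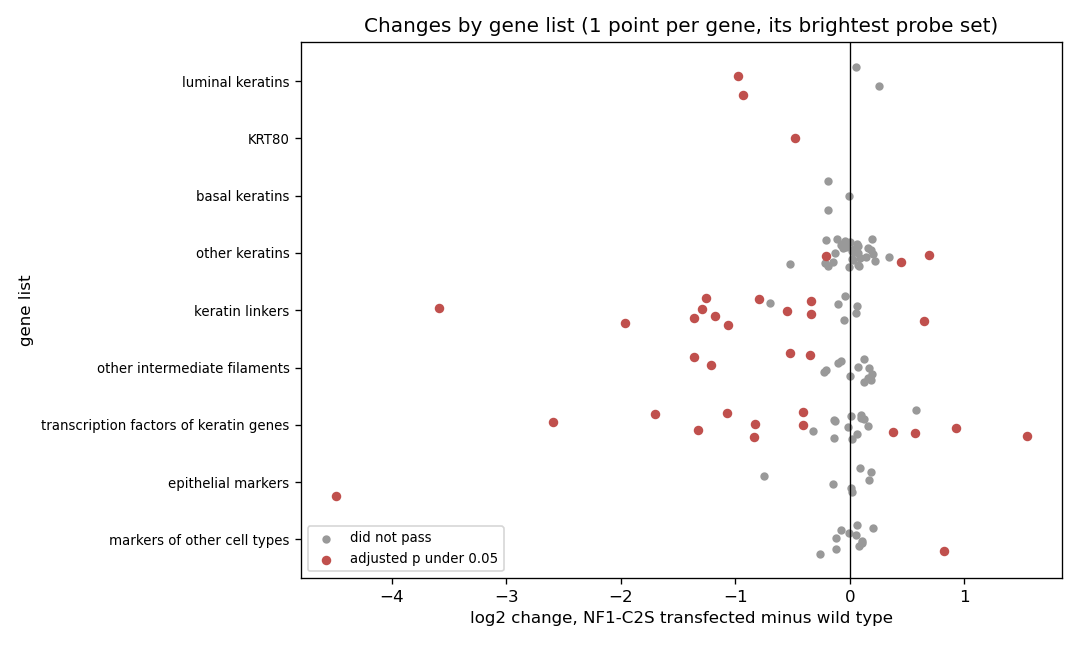
Log2 change per gene (horizontal axis, transfected minus wild type) for each gene list (vertical axis), with red points past an adjusted p of 0.05 in the fit over genes. Keratin linkers lie mostly below 0, 33 of the 36 other keratins lie within 0.35 of 0, and KRT80 is red because its adjusted p was 0.0400 in this fit and 0.0512 over probe sets.

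The labels call the cells breast tumour epithelial cells. Of 8 measured epithelial markers, 2 were at or below the median of all probe sets in both groups. CLDN4 (4.85 in transfected and 5.0 in wild type arrays) and CLDN7 (4.83 and 4.66) lay near that median. CLDN3 (6.44 in transfected and 6.42 in wild type arrays) and MUC1 (5.69 and 5.60) lay above it, on probe sets ending in _x_at and in _s_at. E-cadherin, CDH1, averaged 3.44 ± 0.07 in transfected and 3.42 ± 0.02 in wild type arrays (SD, n = 3 each; limma adjusted p = 0.894). The epithelial adhesion molecule EPCAM averaged 4.96 ± 0.44 in transfected and 5.71 ± 0.36 in wild type arrays and did not pass (log2 change -0.75, adjusted p = 0.0601), but passed with the replicate block (adjusted p = 0.0201). Among the 8 markers only the surface glycoprotein CD24 was called, or 12.5% against 31.9% of all genes. CD24 averaged 7.06 ± 0.37 in transfected and 11.55 ± 0.05 in wild type arrays, a log2 change of -4.49, and was lower on all 6 of its probe sets. Of 12 measured markers of leukocytes, endothelium, fibroblasts and fat cells, 9 were at or below the median of all probe sets in both groups, and the sum of the 12 log2 values was 52.0 to 53.8 in transfected and 51.1 to 52.4 in wild type arrays. By its brightest probe set, CD14, a monocyte receptor, was the only one called (log2 change 0.82, limma adjusted p = 0.00947), or 8.33% against 31.9% of all genes. PECAM1, an endothelial marker, was not called in this way, but 2 of its 5 probe sets were lower in the fit over probe sets. The general leukocyte marker PTPRC read 3.65 to 4.11 in transfected and 3.50 to 3.80 in wild type arrays.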

How the data were processed

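The deposited table gives a log2 value per probe set and array, made by the authors with RMA per the submitters' processing notes, with no version stated. The 62 control probe sets were left out. Genes were named through the platform annotation, with symbols updated through RefSeq's gene table. The deposited log2 values were compared with limma 3.58.1 in R 4.3.3 (two-sided, transfected minus wild type), with Benjamini-Hochberg adjustment over all probe sets, and the fit was tested on simulated data. A second fit over 19775 genes served the gene lists. Arrays have no read depth, and their number limits the precision. The members and lists were chosen with earlier results of these data known. The text names every member, up to 4 called genes with the largest change and no overlap per list, and 5 fixed genes. Same-numbered arrays of the 2 groups deviated together, with correlations of 0.398, 0.238 and 0.140 for replicates 1, 2 and 3. Other pairs gave -0.277 to 0.142, a range that includes the value of replicate 3. A pairing by number therefore rests on the data and not on the labels. The main fit did not use it, and the replicate block was run as an alternative. Alternatives changed the normalization, array weights, variance prior, filter, replicates, block and features.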

Additional observations from a re-analysis of the deposited data

How the results depend on the processing

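The count of keratin probe sets called higher was 0 under every alternative run, and the count called lower was 2 or 3, the third being KRT80. With the replicate block 3 were lower, and the block changed no other call among the 12. In the lists the block ended the calls of KRT32 and FOSL1 (adjusted p = 0.0735 and 0.0574), brought EPCAM, PKP2, FOXA1 and ZEB2 past the threshold (0.0201, 0.00319, 0.039 and 0.00692), and changed no other call. Leaving out any 1 array gave 0 higher and 2 to 3 lower. The total of called features was 12142 over probe sets, 9732 to 12358 when any 1 array was left out, 13470 with the replicate block, and 6300 in the fit over genes, which tests fewer features. KRT80 passed with median centring, array weights, a trend and robust prior, brighter probe sets only, the replicate block, the fit over genes and without transfected replicate 1 (adjusted p from 0.0108 to 0.0483), and the cause was not tested. List counts under other settings, and all fits that drop the _x_at and _s_at probe sets, were added after seeing the data. Without those probe sets, 12 other intermediate filament genes (2 lower, NEFL and SYNM), 30 other keratins (1 higher) and 3 epithelial markers (0 lower) were still measured. Of the transcription factors 23 were still measured, with 5 higher and 6 lower. No share over all genes was computed for this fit, so its list counts are not set against a background. VIM, SYNC, CD24, KRT33A, KRT8 and KRT18 had no probe set left. Epithelial markers called lower were 2 in place of 1 with the replicate block, with the trend and robust prior and without transfected replicate 3. The count of transcription factors called higher was 2 in place of 4 without transfected replicate 2 or wild type replicate 3. Dim probe sets limit what can be read of KRT19 and the basal keratins.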

Other observations

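On several dim keratin probe sets replicate 1 gave the highest value in both groups. KRT14 read 4.10 in transfected replicate 1 and 4.13 in wild type replicate 1, and KRT19 on 228491_at read 4.64 in transfected and 4.22 in wild type replicate 1. The second KRT19 probe set, 201650_at, read 4.14 in transfected and 3.82 in wild type replicate 1, and KRT23, a type I keratin outside the 10 genes that was named after its values were seen, read 4.15 in transfected and 3.90 in wild type replicate 1. The other arrays of these 4 probe sets read 3.37 to 4.08. KRT7 on 214031_s_at showed the pattern too, at 3.78 in transfected and 3.77 in wild type replicate 1. Not every dim probe set did: KRT5 read 4.43 in transfected replicate 1, the lowest of its group. The share of all probe sets with this pattern was not computed.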
